A study of Mus musculus with 12 samples.

Results

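A group of imprinted genes that are known regulators or readouts of growth were followed in mouse inguinal white adipose tissue (iWAT), the subcutaneous fat pad in which beige adipocytes form in the cold. They were Nnat, Mest, Plagl1, Peg3, Ndn, Igf2, Cdkn1c, Grb10, Dlk1 and Meg3, which made up 10 of the 22180 genes measured on the arrays. The genes were chosen by name as imprinted growth genes, with earlier results of the same arrays known, and Nnat was among those earlier results for its low signal in cold AKO fat. Each gene was read from the transcript cluster (the group of array probes summarised as 1 value) with the highest mean over the 12 arrays, among clusters annotated to exactly 1 gene symbol. The calls for Nnat are therefore given as a description, and those for the other members are not independent evidence.

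The study asked how loss of BAF60a, a subunit of the BAF chromatin-remodelling complexes that is encoded by Smarcd1, alters the response of fat to cold. Mice of both genotypes carried floxed Baf60a alleles and were 9 months old. In AKO mice the gene was deleted by an Adiponectin-Cre transgene, which acts in adipocytes and leaves the other cells of the pad intact, whereas flox littermates served as controls. Mice stayed at room temperature (RT, 22 °C) or were adapted gradually to 10 °C and then held there for 7 days (Cold), which gave 4 groups (flox RT, AKO RT, flox Cold and AKO Cold) with 3 arrays each, and RNA of 1 or 2 mice was pooled per array.

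Imprinted genes are transcribed mainly from the maternal or mainly from the paternal chromosome, as set by DNA methylation laid down in the germ line. Many of them act on fetal and postnatal growth, with paternally expressed genes such as Igf2, Peg3 and Mest mostly promoting it and maternally expressed genes such as Cdkn1c and Grb10 mostly restraining it. In mouse fat, Mest is known to vary with adipocyte enlargement, Ndn and Dlk1 restrain adipogenesis, and Plagl1 codes for a zinc finger factor that controls several other imprinted genes.

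The signals are log2 values, so that a difference of -1 is a halving, and a difference was called when its adjusted p in limma was below 0.05. The array medians lay between 3.57 and 3.71, and the median of all values was 3.64, a level below which Dlk1 and Meg3 lay on every array. The targeted gene, Smarcd1, measured 6.42 to 6.91 in flox RT, 5.89 to 6.30 in AKO RT, 6.27 to 6.89 in flox Cold and 6.26 to 6.37 in AKO Cold, so that the genotypes overlapped in the cold. Whether its cluster covers the deleted exons is not given in the sources used here, and cells other than adipocytes keep the gene. Skeletal muscle markers were uneven, with a list mean (log2, each gene centred on its mean over the arrays) of 2.81 in AKO RT 2, 1.64 in AKO Cold 2 and 3.36 in AKO Cold 3 against -2.33 in AKO Cold 1. Beige and brown adipocyte markers had list means of -1.27 to -1.14 in flox RT, -0.78 to -0.70 in AKO RT, -0.52 to 0.19 in flox Cold and 2.07 to 2.35 in AKO Cold. In bulk tissue, fewer cells of a type and less RNA per cell cannot be told apart.

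The sequences before the transcription start are shown for Nnat, Plagl1 and Mest, the members with the lowest AKO signal relative to flox. They are the last 200 bases before a RefSeq start in GRCm38.p6, all on the plus strand, 5′ to 3′, with every CpG dinucleotide, the site of DNA methylation, in capitals.
Nnat, chr2:157559878-157560077: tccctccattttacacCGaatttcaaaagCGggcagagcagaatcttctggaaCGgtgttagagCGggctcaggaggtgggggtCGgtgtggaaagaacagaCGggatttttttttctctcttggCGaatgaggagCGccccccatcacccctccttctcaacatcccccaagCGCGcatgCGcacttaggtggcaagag
Mest, chr6:30737850-30738049: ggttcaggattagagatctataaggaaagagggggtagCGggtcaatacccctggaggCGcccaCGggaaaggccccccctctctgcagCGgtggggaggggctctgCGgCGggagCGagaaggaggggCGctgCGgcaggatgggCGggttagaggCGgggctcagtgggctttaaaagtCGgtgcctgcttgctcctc
Plagl1, chr10:13090632-13090831: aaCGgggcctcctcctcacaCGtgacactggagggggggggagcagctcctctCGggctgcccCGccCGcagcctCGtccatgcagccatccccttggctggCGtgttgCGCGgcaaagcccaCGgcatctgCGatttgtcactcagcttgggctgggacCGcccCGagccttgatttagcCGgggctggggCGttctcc
These stretches held 11 CpG dinucleotides for Nnat, 12 for Mest and 15 for Plagl1. Windows of 250 bases before the start were found for 9 of the 10 members (not Cdkn1c), and they held 12 CpG for Nnat, 14 for the Mest start shown and 19 for Plagl1, against a median of 6 over 32851 such windows of all genes. As many or more were found in 33.5%, 29.4% and 19.7% of all windows, respectively. TGCCGC, the letters bound by ZFP57 when methylated at imprinting control regions, was sought on both strands. It occurred in the windows of Mest (2 matches) and Plagl1 (1 match), and in 1 of the Meg3 windows (1 match), but not in that of Nnat, and 8.68% of all windows held it. A further Mest start upstream held none, and the third lay 3 bases from the start shown. GGGGCCCC, part of the site known for PLAGL1, was found among the members only in the Peg3 window (1 match), and in 0.889% of all windows. A match is a description of the letters and not of binding.

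Nnat, which codes for neuronatin, a small membrane protein of the endoplasmic reticulum, was the member with the widest range. It measured 10.70, 9.51 and 10.29 in flox RT and 9.82, 9.75 and 10.41 in AKO RT. In the cold it measured 8.78, 9.51 and 8.79 in flox and 5.81, 5.96 and 6.73 in AKO. All 3 AKO Cold arrays lay below the other 9, by at least the gap from 6.73 to 8.78, whereas the genotypes overlapped at RT. The group means were 10.17 ± 0.61 (SD, n = 3) in flox RT, 9.99 ± 0.37 in AKO RT, 9.03 ± 0.42 in flox Cold and 6.17 ± 0.49 in AKO Cold. In that order the RT groups did not differ beyond their spread. AKO RT and flox Cold did not overlap, with the lowest AKO RT array at 9.75 and the highest flox Cold array at 9.51.

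The difference between AKO and flox in the cold was -2.86 (SE 0.33, 95% interval -3.58 to -2.13), so that the AKO signal was 13.8% of flox, while at RT the difference was -0.17 (SE 0.33, interval -0.90 to 0.55, adjusted p = 0.963). Between RT and Cold the AKO signal fell by 3.83 on the log2 scale (SE 0.33, interval -4.55 to -3.10), to 7.04% of its RT level. In flox mice the difference between Cold and RT was -1.14 (SE 0.33, adjusted p = 0.292) and did not pass, and 1 flox RT array had the same rounded value as the highest flox Cold array, 9.51. The interaction of genotype and temperature was -2.69 (SE 0.47), with an adjusted p of 0.326 over all genes in limma. The drop with cold in AKO therefore exceeded the spread between arrays, but the test of its difference from flox did not pass. Ucp1, the uncoupling protein of thermogenic adipocytes, moved in the opposite direction to Nnat in the cold. It measured 2.63 to 2.92 in flox RT, 2.61 to 3.10 in AKO RT, 3.70 to 5.72 in flox Cold and 10.41 to 10.92 in AKO Cold. Of 9 listed beige and brown markers, limma called 6 higher in AKO in the cold, beside 0.212% of all genes. The methods' t-test called 0 of them there, and 1 of all genes. At RT, where Nnat had no called difference, limma called 2 higher in AKO (Cidea at 1.53 and Plin5 at 1.99), beside 0.144% of all genes. Dio2 (0.94, adjusted p = 0.436), Cox8b (0.64, adjusted p = 0.677) and Ppargc1a (0.18, adjusted p = 0.99) were not called by limma between genotypes in the cold. For Dio2 and Cox8b the AKO Cold arrays lay above the flox Cold arrays. The part of the beige and brown markers in the Nnat result was not tested. Without the 3 arrays richest in muscle markers, which leaves AKO Cold with 1 array assumed to vary like the others, the difference in the cold was -3.21 but no longer passed (adjusted p = 0.0529).

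A second transcript cluster of Nnat was dimmer and moved less. It measured 6.86, 5.95 and 6.54 in flox RT, 6.49, 6.74 and 6.71 in AKO RT, 6.22, 6.26 and 5.75 in flox Cold, and 5.94, 5.48 and 5.57 in AKO Cold. The AKO Cold arrays were the lowest group by mean, but AKO Cold 1 lay above flox Cold 3. With all single-symbol clusters tested, the second cluster differed by -0.41 (SE 0.22, adjusted p = 0.848) between genotypes in the cold and by -0.98 (SE 0.22, adjusted p = 0.0951) between Cold and RT in AKO, where the arrays did not overlap. Both clusters thus had the same sign in these comparisons, but only the brighter one was called. Nnat lies within the transcription unit of Blcap in the RefSeq annotation. Blcap, which is expressed from both copies in most tissues, had values of 5.73 to 6.04 in AKO RT and 5.34 to 5.56 in AKO Cold, a difference of -0.49 (SE 0.16, adjusted p = 0.255) that did not pass.

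**Figure D1:**
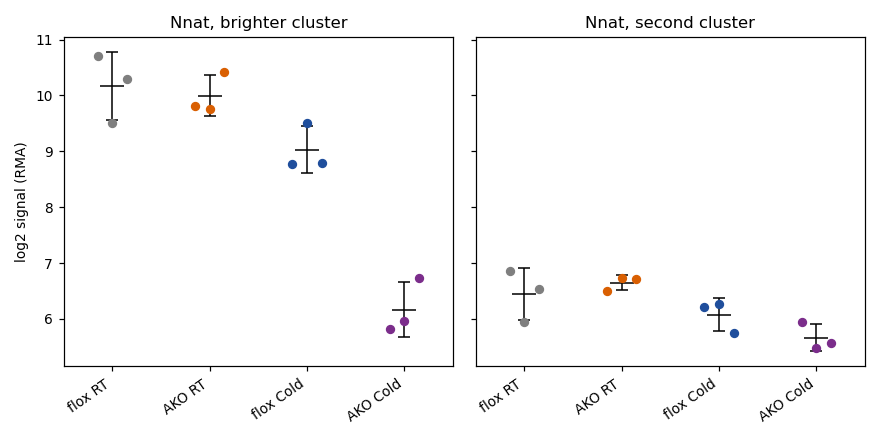
Log2 signal of the brighter (left) and the second (right) transcript cluster of Nnat on each of the 12 arrays, by group, with group mean and SD (n = 3). The AKO Cold arrays lie between 5.81 and 6.73 in the brighter cluster, below all others, and between 5.48 and 5.94 in the second, where they overlap flox Cold.

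Plagl1, also known as Zac1, a paternally expressed zinc finger transcription factor, was lower in AKO at both temperatures. It measured 6.56, 6.10 and 7.13 in flox RT and 5.95, 5.76 and 6.01 in AKO RT. In the cold it measured 6.98, 6.72 and 6.48 in flox and 5.89, 5.16 and 5.70 in AKO. All 6 AKO arrays lay below all 6 flox arrays, although the gap at RT was small (6.01 against 6.10). The difference was -0.69 (SE 0.25, adjusted p = 0.686) at RT and -1.14 (SE 0.25, adjusted p = 0.135) in the cold, neither of which passed. Averaged over both temperatures it was -0.92 (SE 0.17, interval -1.30 to -0.53), which passed with an adjusted p of 0.0419, and the AKO signal was 53.0% of flox. This call was lost in 10 of 12 fits that left out 1 array, with differences from -1.04 to -0.78 and adjusted p up to 0.118. Temperature made no called difference in either genotype (0.13 in flox, -0.32 in AKO, SE 0.25). A second, very dim Plagl1 cluster measured 1.08 to 2.01 over the 12 arrays, with a difference of -0.54 (SE 0.18, adjusted p = 0.637) at RT and 0.02 (SE 0.18, adjusted p = 0.997) in the cold.

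Mest, the mesoderm-specific transcript, codes for a protein of the endoplasmic reticulum with a hydrolase fold. It measured 7.48, 5.67 and 6.61 in flox RT and 5.33, 4.74 and 5.53 in AKO RT. In the cold it measured 6.18, 6.87 and 5.47 in flox and 5.48, 5.50 and 5.05 in AKO. The genotypes did not overlap at RT, where AKO 3 (5.53) came close to flox 2 (5.67), and they overlapped in the cold. The difference between AKO and flox was -1.38 (SE 0.43, interval -2.31 to -0.45, adjusted p = 0.573) at RT, -0.83 (SE 0.43, adjusted p = 0.829) in the cold and -1.11 (SE 0.30, adjusted p = 0.246) averaged over both. None of these passed, and Mest had the largest standard error of the 10 members. Cold made no called difference in flox (-0.41) or AKO (0.14, SE 0.43). Npr3, Bmp3, Sfrp5 and Nkd1 were followed beside Mest as genes linked to fat expansion. Limma called none of these 4 genes between genotypes, beside 0.144% of all genes at RT and 0.212% in the cold. The methods' t-test called none of them either, and 1 of all genes at each temperature. At these shares, 0 of 4 is no result about the genes. Npr3 alone had an unadjusted limma p below 0.05 at both temperatures, beside 6.15% of all genes at RT and 6.28% in the cold. Its differences had opposite signs, 0.72 (SE 0.20, adjusted p = 0.436) at RT, where Mest had a negative difference, and -0.50 (SE 0.20, adjusted p = 0.696) in the cold. Npr3, the clearance receptor for natriuretic peptides, measured 10.65 to 11.02 in AKO RT and 9.08 to 9.09 in AKO Cold and fell by 1.70 (SE 0.20, adjusted p = 0.00269).

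Peg3 and Ndn, which are also paternally expressed, were not called in any comparison. Peg3, a zinc finger protein that affects growth and maternal behaviour in mice, measured 8.01 to 8.61 in flox RT, 7.67 to 8.48 in AKO RT, 8.05 to 8.68 in flox Cold and 8.20 to 8.31 in AKO Cold. All 4 groups overlapped, and the differences ran from -0.13 to 0.11 with an SE of 0.22 in the 4 comparisons of single groups. Ndn, which codes for the MAGE family protein necdin, measured 5.35, 4.76 and 5.25 in flox RT and 5.26, 4.85 and 5.41 in AKO RT. It measured 4.86, 5.14 and 4.58 in flox Cold and 4.75, 4.63 and 4.36 in AKO Cold. The AKO Cold arrays lay below the AKO RT arrays, with a difference of -0.59 (SE 0.20, interval -1.03 to -0.15) that did not pass (adjusted p = 0.31), and the genotypes overlapped at both temperatures.

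The genes that act directly on insulin-like growth factor signalling and the cell cycle showed no called difference. Igf2, the fetal growth factor, measured 4.28 to 4.90 in flox RT, 4.34 to 5.29 in AKO RT, 4.55 to 4.67 in flox Cold and 4.49 to 4.62 in AKO Cold. Grb10, an adaptor that restrains insulin and insulin-like growth factor receptors, lay between 6.61 and 7.19 on all arrays. Its difference between genotypes was 0.18 (SE 0.15) at RT and -0.01 (SE 0.15, interval -0.34 to 0.33) in the cold. Cdkn1c, which codes for the cyclin-dependent kinase inhibitor p57, ranged from 3.58 to 5.24, and both extremes were RT arrays. Its difference was 0.44 (SE 0.33, adjusted p = 0.897) at RT and -0.26 (SE 0.33, adjusted p = 0.985) in the cold. Of 15 measured insulin and insulin-like growth factor signalling genes, 0 were called between genotypes in the cold or between Cold and RT in AKO. This held for limma, beside 0.212% and 0.464% of all genes, and for the methods' t-test, which called 1 and 0 of all genes. At these shares, 0 of 15 is no result about the genes. An unadjusted limma p below 0.05 was found for 3 in the former (beside 6.28% of all genes) and 4 in the latter (beside 9.86%). Among the latter, Igf1, the postnatal growth factor, measured 8.81 to 9.00 in AKO RT and 8.45 to 8.61 in AKO Cold, a difference of -0.36 (SE 0.10, adjusted p = 0.186). Htra1, a secreted protease that can cleave binding proteins of these factors, had a difference of -0.64 (SE 0.14, adjusted p = 0.0892), and Igfbp2, one of the binding proteins, of 0.50 (SE 0.12, adjusted p = 0.131). Igfbp2 was dim, with 2.87 to 3.52 over the arrays, below the median of all values on each. Its difference between genotypes was -0.46 at RT and 0.32 in the cold, and neither passed.

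Dlk1 and Meg3 lie in the same imprinted cluster on chromosome 12 and are expressed from opposite parental copies. Dlk1, also known as Pref-1, a membrane protein of preadipocytes, measured 3.03, 3.32 and 3.03 in flox RT and 3.06, 2.97 and 3.10 in AKO RT. It measured 2.30, 3.09 and 2.35 in flox Cold and 3.41, 2.91 and 3.07 in AKO Cold. The flox Cold group held the lowest 2 arrays and overlapped all other groups through flox Cold 2. The difference between genotypes in the cold was 0.55 (SE 0.20, adjusted p = 0.614) and that between Cold and RT in flox was -0.54 (SE 0.20, adjusted p = 0.401), and neither passed. Meg3, a long noncoding RNA, lay between 2.06 and 2.59 on all arrays in its single-symbol cluster, and none of its differences there between single groups exceeded 0.14. RMA values carry no detection call, so at these levels a signal could not be told from background. A brighter cluster annotated to both Meg3 and Mir770 (mean 3.40 over the arrays) lay higher on all RT than on all Cold arrays and was not tested.

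**Figure D2:**
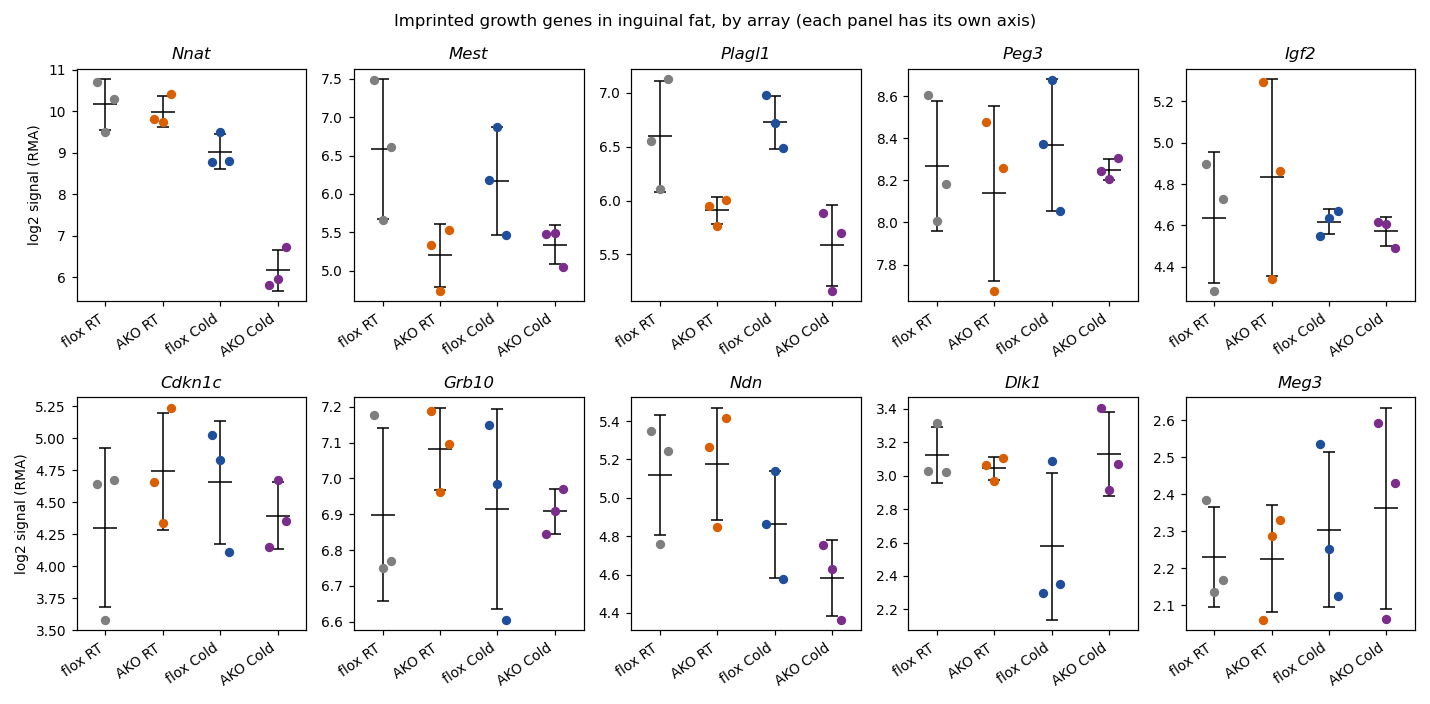
Log2 signal of the 10 imprinted genes on each array, by group, with the group mean and SD (n = 3) and a separate axis per gene. Nnat separates AKO Cold (at most 6.73) from the other 9 arrays (at least 8.78), and Plagl1 separates the 6 AKO arrays (at most 6.01) from the 6 flox arrays (at least 6.10).

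Of the 10 members, the number called was 0 between genotypes at RT and 1 (Nnat, lower in AKO) in the cold, where 0.144% and 0.212% of the 22180 genes were called. Between Cold and RT it was 0 in flox and 1 (Nnat, lower) in AKO, beside 0.00902% and 0.464% of all genes. For the interaction it was 0, with 0.018% of all genes called. Averaged over temperatures, 2 members (Nnat and Plagl1) were called lower in AKO, beside 0.537% of all genes, and averaged over genotypes 1 (Nnat) was called lower in the cold, beside 1.83%. At an unadjusted p below 0.05 there were 2 members between genotypes at RT (Mest and Plagl1) and 3 in the cold (Nnat, Plagl1 and Dlk1), beside 6.15% and 6.28% of all genes. There were 2 between Cold and RT in flox (Nnat and Dlk1), 2 in AKO (Nnat and Ndn) and 2 for the interaction (Nnat and Dlk1), beside 9.44%, 9.86% and 4.78% of all genes. The methods' t-test called 0 members in the comparisons of single groups. Of all genes it called 1 between genotypes at RT, 1 in the cold, and 0 between Cold and RT in either genotype. The median difference of the members between genotypes was -0.04 at RT and -0.19 in the cold, beside -0.01 and 0.00 over all genes, and 8 of 10 members had a negative sign in the cold. Since Nnat was on the list for its change in the cold, these counts and medians are a description.

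**Figure D3:**
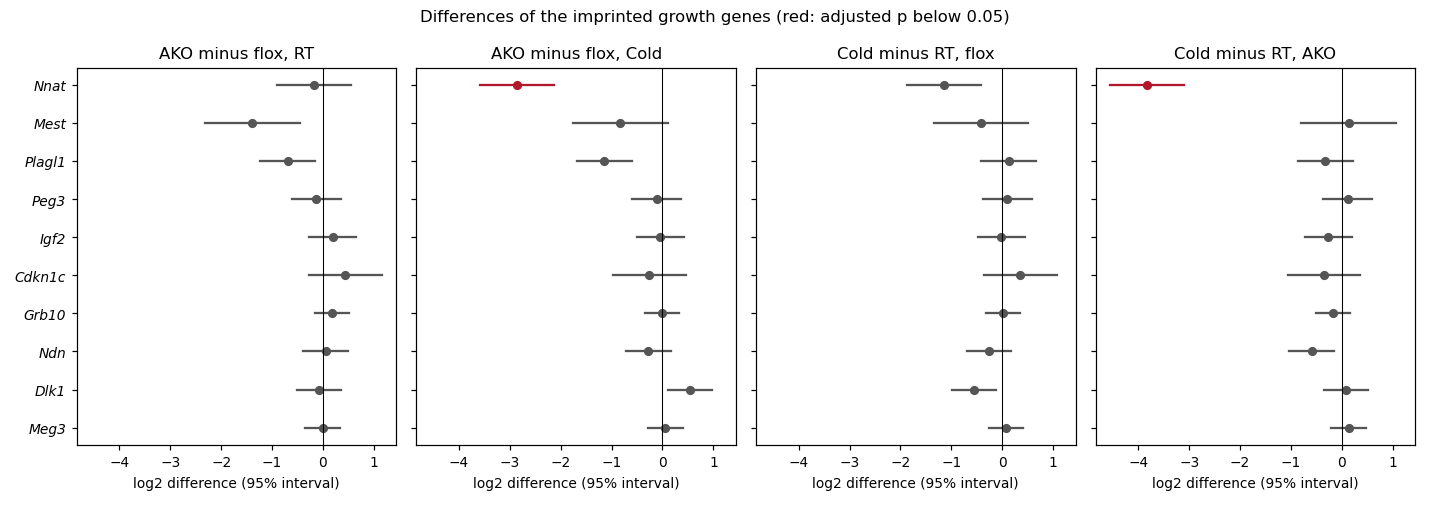
Log2 difference of each member with its 95% interval in 4 comparisons of single groups, red where the adjusted p over 22180 genes was below 0.05. Nnat alone is red, at -2.86 in AKO against flox in the cold and at -3.83 in Cold against RT of AKO. The intervals are not adjusted over genes. In AKO against flox, those of Plagl1 (both temperatures), Mest (RT) and Dlk1 (Cold) also exclude 0, without a call. So do those of Nnat and Dlk1 in Cold against RT of flox, and of Ndn in AKO.

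Neighbouring genes of the same imprinted clusters were not called. Limma called 0.144% of all genes between genotypes at RT and 0.212% in the cold. At these shares, 0 calls in lists of this size are no result about the genes listed. Beside the unadjusted counts that follow, 6.15% of all genes had an unadjusted p below 0.05 between genotypes at RT and 6.28% in the cold. The methods' t-test called 1 of all genes at each temperature, so its counts of 0 below are not further evidence. Among 24 measured neighbours, 13 had a mean above the median of all values. Of the 24, limma called 0 between genotypes at RT (3 at an unadjusted p below 0.05, and 0 called by the methods' t-test) and 0 in the cold (1 and 0). The smallest p belonged to Slc22a18, a transporter gene of the Cdkn1c cluster, which measured 4.93 to 5.30 in flox RT, 4.18 to 4.55 in AKO RT, 4.73 to 5.22 in flox Cold and 3.91 to 4.73 in AKO Cold. Its genotypes did not overlap at either temperature, by a margin under rounding in the cold, and its difference averaged over temperatures was -0.70 (SE 0.14, adjusted p = 0.0607). Among 23 measured imprinted genes of other clusters, 16 had a mean above the median of all values. Of the 23, 0 were called between genotypes at RT (3 at an unadjusted p below 0.05, and 0 called by the methods' t-test) or in the cold (1 and 0). Nap1l5, a paternally expressed gene of the nucleosome assembly protein family, had the smallest p, with 4.89 to 5.50 in flox RT, 5.64 to 6.37 in AKO RT, 5.02 to 5.61 in flox Cold and 5.80 to 6.67 in AKO Cold. It was higher on all 6 AKO arrays than on all 6 flox arrays, with an averaged difference of 0.81 (SE 0.19, adjusted p = 0.125). Of 15 measured miRNA genes of these clusters, 0 were called in any of the 7 comparisons, in which limma called at most 1.83% of all genes. Between genotypes, 3 had an unadjusted p below 0.05 at RT and 1 in the cold, and 0 were called by the methods' t-test. Of the 15, 2 lay above the median of all values.

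Within groups, several members rose and fell together from array to array. With the group means subtracted, 41 of the 45 pairs of members had a positive Pearson correlation over the 12 arrays, 20 were above 0.5, and the median was 0.44. The highest was that of Mest with Ndn (r = 0.93, Spearman rho = 0.92, and r = 0.94 without the 2 arrays farthest from the Mest median). Mest with Peg3 had r = 0.83 (rho = 0.72, and 0.79 without the same 2 arrays). Nnat with Mest had r = 0.66 (rho = 0.55, and 0.77 without the 2 arrays farthest from the Nnat median). Over all 12 arrays Dlk1 had no correlation above its 0.32 with Ndn (rho = 0.36), and its rho with Mest was 0.24. Without the 2 arrays farthest from the median of the other gene, its r was 0.59 with Ndn and 0.67 with Mest. Its r with these genes thus depends on the arrays used. Meg3 was above 0.5 with Plagl1 alone (r = 0.56, rho = 0.60, and 0.81 without the 2 arrays farthest from the Plagl1 median). For comparison, 17.3% of the 22179 other genes had an r above 0.5 with Mest and 0.406% one above 0.9. The points share pooled RNA, tissue composition and the normalization of an array, so these values are a description with no test.

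**Figure D4:**
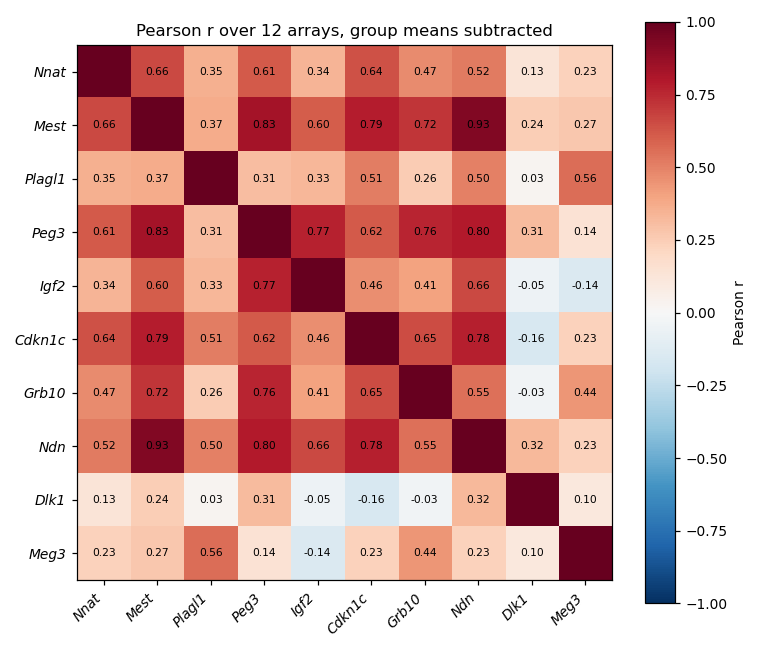
Pearson r of each pair of the 10 imprinted genes over 12 arrays after the group means were subtracted (colour from -1 to 1). Mest, Peg3, Cdkn1c, Grb10 and Ndn form a block with r from 0.55 to 0.93, whereas the row of Dlk1 stays at or below 0.32.

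On some arrays most members deviated in the same direction. In flox RT 2, AKO RT 2 and flox Cold 3, 1 of the 10 members lay above its group mean, against 10 in AKO RT 3 and 8 in flox RT 1 and flox Cold 2. The mean deviation of the members ran from -0.38 in flox RT 2 to 0.29 in flox RT 1. The same 3 low arrays were low in 11 mature adipocyte markers (-0.23, -0.11 and -0.09 as mean deviations) and in 7 endothelial markers (-0.17, -0.17 and -0.19), and high in 6 B cell markers (0.15, 0.29 and 0.68). AKO Cold 3 had the same marker pattern (-0.07, -0.21 and 0.28), but 5 of its 10 members lay above the group mean, with a mean deviation of 0.02. Over the 12 arrays the within-group deviation of Mest had r = 0.83 with that of the mature adipocyte markers and r = -0.77 with that of the B cell markers. Its r was 0.76 with endothelial markers and 0.72 with progenitor and fibroblast markers, so the mature adipocyte list was not alone. The progenitor and fibroblast markers were also below 0 on the 3 low arrays (-0.02, -0.07 and -0.20). The other lists had r with Mest between -0.13 (skeletal muscle) and 0.50 (nerve and Schwann cells). For Nnat the values were 0.51 with mature adipocyte, -0.23 with B cell, 0.11 with endothelial, and 0.18 with progenitor and fibroblast markers. The part of tissue composition in the levels of the members was not tested.

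**Figure D5:**
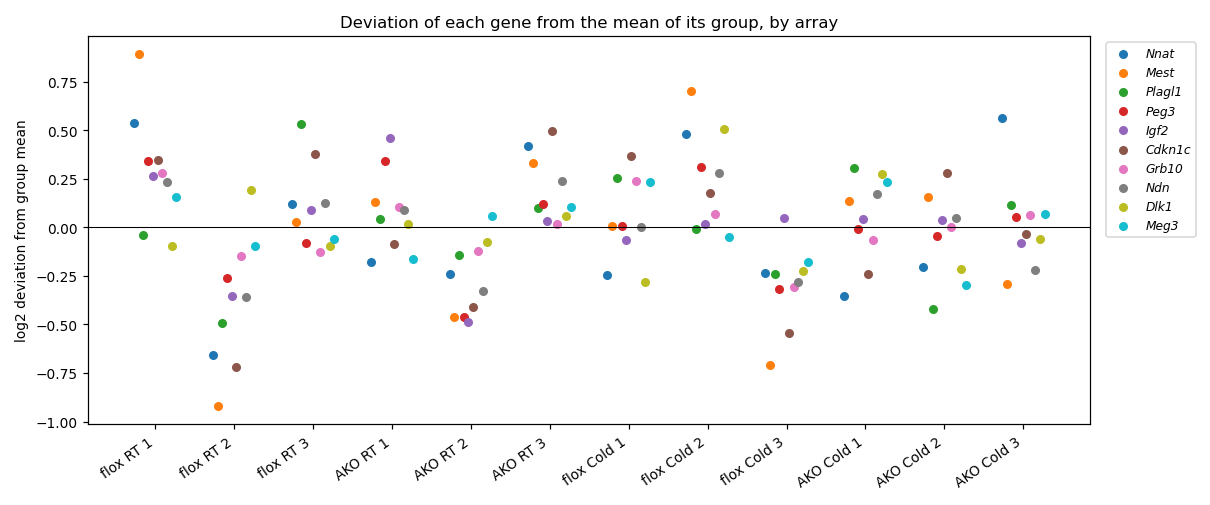
Log2 deviation of each of the 10 genes from the mean of its group, on each of the 12 arrays, with a colour per gene. In flox RT 2, AKO RT 2 and flox Cold 3, 9 of the 10 points lie below 0.

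Over the 12 arrays with group means kept, the genes with the pattern most like that of Nnat among 11836 annotated genes with a mean above the median were Ccdc80 (r = 0.95), Hp (0.91), Cep170 (0.90), Phf8 (0.90) and Lpgat1 (0.89). Ccdc80, a secreted protein abundant in adipocytes, had a difference of -0.91 between genotypes in the cold and 0.12 at RT, and Hp, which codes for haptoglobin, of -1.04 and -0.50. The most opposite were Ucp1 (r = -0.96), Elovl3 (-0.95), an elongase of very long fatty acids in thermogenic fat, and Xrcc6 (-0.95). After the group means were subtracted, r was 0.47 for Ccdc80, Cep170 and Phf8, 0.49 for Lpgat1 and -0.54 for Xrcc6, and it was -0.17 for Hp, 0.18 for Ucp1 and -0.09 for Elovl3. For Mest the most alike were Mfng (r = 0.95), Gstt3 (0.93), Prxl2b (0.91), Fam217a (0.91) and Lhfpl2 (0.89), and the values within groups stayed between 0.81 and 0.93. The most opposite to Mest were Capn7 (-0.86), Timm8a2 (-0.83) and Il22ra2 (-0.81).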

How the data were processed

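Total RNA of iWAT was hybridised to Affymetrix arrays by the authors, with 400 ng per array. The deposited values are log2 signals that the authors made with RMA in R 3.1.1, per the submitters' processing notes. RMA subtracts background, forces a common distribution on the arrays by quantile normalization and condenses the probes of a cluster into 1 value, and it carries no counts or detection calls, so the number of arrays limits the precision. Whether the 12 arrays were normalized together is not given in the sources used here.

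Of 41345 clusters, 23521 had exactly 1 symbol in the platform annotation, 1820 had several and 16004 none. The cluster with the highest mean represented each of 22180 genes. Differences were fitted with limma 3.58.1 in R 4.3.3 (1 mean per group over 12 arrays, eBayes, two-sided), with Benjamini-Hochberg adjustment over all genes in each of 7 comparisons and a threshold of 0.05. The script was tested on simulated data. A test specific to the arrays is not given in the sources used here, so the two-sided Student test of the general methods (the methods' t-test) was an alternative. An exact permutation test of 3 arrays against 3 was not used, because its p cannot fall below 0.1. No sex or batch is in the labels. Pooling of mice was not stated per array.

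Members, gene lists and marker lists were chosen with earlier results of these data known. All 10 members are named. From the other lists, genes past the threshold and up to 3 with the smallest p could be named, and genes like Nnat or Mest were ranked by Pearson r. Promoter sequences are from RefSeq (GRCm38.p6). No coordinates of array probes were used.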

Additional observations from a re-analysis of the deposited data

How the results depend on the processing

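Scaling each array to its median, quantile normalization over genes, a filter on dim genes, testing all clusters, trend and robust settings and array weights left the number of members called within 1.5 times the value given in all 7 comparisons, and fitting the compared groups alone did so in the 4 comparisons of single groups, where it was run. The exceptions lay elsewhere. With the mean of the clusters of a gene, 0 members were called between genotypes averaged over temperatures, with Nnat at -0.81 (adjusted p = 0.0767) and Plagl1 at -0.59 (adjusted p = 0.125). With the methods' t-test and Benjamini-Hochberg adjustment, 0 members were called between genotypes in the cold (1 of all genes called) and 0 between Cold and RT in AKO (0 of all genes called). At an unadjusted p below 0.05, that test gave Nnat and Plagl1 in the former and Nnat and Ndn in the latter, and it was not run for the interaction and the averaged comparisons.

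Leaving out each array in turn gave 1 to 2 members called between genotypes averaged over temperatures. Plagl1 was lost in 10 of these 12 fits (all but those without flox RT 2 or AKO Cold 1), while Nnat was called in all 12, between -1.68 and -1.38. In the same fits Nnat stayed called between genotypes in the cold (-3.14 to -2.62) and between Cold and RT in AKO (-4.11 to -3.62). Same-numbered arrays deviated together in no consistent way (r from -0.24 to 0.28). Differently numbered arrays were not compared, so these values cannot show whether the numbers pair the samples. A replicate block gave 2 members called between genotypes on average, 1 in the cold and 1 between Cold and RT in AKO.

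Alternatives chosen after seeing the data left out arrays rich in markers of other tissues. Without the 3 arrays richest in muscle markers (AKO RT 2, AKO Cold 2 and AKO Cold 3), 0 members were called between genotypes in the cold and 0 on average. Without the 2 richest in mammary epithelium markers (flox RT 1 and flox Cold 1), 0 were called on average (Nnat -1.44, adjusted p = 0.0585, and Plagl1 -0.86, adjusted p = 0.214). The cause was not tested, and both sets also hold fewer arrays.

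Of the differences of members in the 7 comparisons, 16 had an unadjusted p below 0.05, and 0 of their 367 values under alternatives changed sign. Many of these values could not change sign. The filter on dim genes, testing all clusters, and trend and robust settings alter the test and not the difference. So do the compared groups alone, the methods' t-test and the replicate block. Leaving out an array of a group that is not compared also leaves a difference as it was. The 16 were also chosen by their p in the same data, so this count is a description. The other 54 differences were treated as having no direction, and 86 of their 1239 values changed sign, none then larger than 0.23. Signals below the median of all values limit what can be said of Dlk1 and Meg3.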

Other observations

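Clusters annotated to a member together with other genes were left out of the comparisons. A cluster annotated to both Meg3 and Mir770 measured 3.47 to 3.79 in flox RT, 3.39 to 3.90 in AKO RT, 3.05 to 3.35 in flox Cold and 3.10 to 3.27 in AKO Cold, so that all 6 RT arrays lay above all 6 Cold arrays. A cluster annotated to Meg3 and Mir1906 copies measured 4.78 to 5.22 in flox RT, 5.01 to 5.46 in AKO RT, 4.52 to 4.78 in flox Cold and 4.30 to 4.96 in AKO Cold. The single-symbol Meg3 cluster, at 2.06 to 2.59, was dimmer than both and did not separate the temperatures. The shared clusters cannot be assigned to Meg3 alone, and they were not tested. Rian, a noncoding RNA gene of the same chromosome 12 cluster, measured 4.13 to 4.45 in flox RT, 4.11 to 4.46 in AKO RT, 3.35 to 4.09 in flox Cold and 3.81 to 4.02 in AKO Cold, with a difference of -0.45 (SE 0.12, adjusted p = 0.111) between Cold and RT averaged over genotypes. A cluster annotated to Peg3 and its antisense gene Peg3os lay between 2.63 and 3.40 on all arrays.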
